A study of Homo sapiens with 60 samples.

Results

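The response of C5.2 cells to doxorubicin and rapamycin given together was set against the response of HB4a cells to the same pair, gene by gene. The value for each gene is the C5.2 response (both drugs minus vehicle) minus the HB4a response, on the log2 scale, where a difference of 1 is 2-fold. Members were taken by label: 20 of the 60 arrays of the series, in 4 groups of 5. HB4a is a human breast epithelial line, and C5.2 (also spelled C5.2a in the labels) was made from it by transfection with full-length HER-2 cDNA. Whether C5.2 is a single clone is not stated, and the promoter of the transgene is not named. The groups were HB4a with DMSO vehicle, HB4a with 30 nM doxorubicin plus 20 nM rapamycin, C5.2 with DMSO vehicle, and C5.2 with the same doses of the drug pair. The design text describes the 5 arrays of a group as independent experiments, and no treatment time is given. The vehicle arrays carry the name DRC, which the treatment text also uses for the drug pair and for which it writes the doses in another unit; the source names and the design text make DRC the vehicle and the doses nanomolar.

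Doxorubicin blocks topoisomerase II while it holds cut DNA, which leaves strand breaks, and p53 then induces genes of cell cycle arrest, repair and death. Rapamycin binds FKBP proteins, and the complex inhibits mTORC1, the kinase complex that drives protein and lipid synthesis in step with nutrients and growth factors. HER-2, the product of ERBB2, is a receptor tyrosine kinase that signals through the ERK and PI3K pathways and is amplified in a class of breast cancers.

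The level of the transfected gene followed the labels. ERBB2 was 6.34, 6.83, 6.52, 6.86 and 6.82 on the HB4a vehicle arrays and 6.47, 6.68, 7.01, 6.92 and 7.02 with both drugs, in the order of experiments 1, 2, 3, 4 and 6, which is kept throughout. In C5.2 it was 11.63, 12.13, 12.23, 12.17 and 12.13 with vehicle and 12.07, 11.98, 12.13, 12.12 and 12.12 with both drugs. The C5.2 arrays all lay above all HB4a arrays, and the response difference of ERBB2 was -0.12 ± 0.17 (standard error of limma's fit, as throughout; n = 5 arrays per group), which did not pass the test. The epithelial markers KRT7, KRT8 and KRT18 were over log2 5 on all 20 arrays, with EPCAM over 5 on 19 and CDH1 on 18. CDH1, the cell adhesion molecule E-cadherin, ranged from 9.04 to 9.54 in HB4a and from 4.29 to 6.24 in C5.2. COL3A1, a collagen of connective tissue, ranged from 1.90 to 3.16 in HB4a and from 9.88 to 11.2 in C5.2, so the lines differed in more than ERBB2. KRT14 lay at or under the array median on all 20 arrays, as did the leukocyte marker PTPRC, while CD3E, CD14, PECAM1, CDH5 and VWF passed log2 5 on no array and KDR, an endothelial receptor, on 2. Of the other measured basal markers KRT5 passed log2 5 on 18 arrays and CDH3 on 13. An array's median distance from its group mean over the genes tested was 0.0822 to 0.168 on 18 arrays, 0.294 on the HB4a both-drug array 1 and 0.269 on the C5.2 both-drug array 2.

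Both lines responded to the drug pair, and where the responses differed the rise was mostly smaller, or absent, in C5.2. Of 6474 genes tested, 29 had a response difference at an adjusted p under 0.05 (limma, Benjamini-Hochberg), which is 0.448% of all. Of these, 28 were lower in C5.2 (0.432% of all) and 1, DHRS3, was higher (0.0154%). The difference was 2-fold or more for 11 of the 29, and 648 genes reached an unadjusted p under 0.05. The median difference over all 6474 genes was -0.11, and 71.7% of genes lay below 0, so values are to be read beside that shift. With each array centred on its own median the median difference was 0.0026, and 14 genes were called, 3 higher and 11 lower. Of the 29, centring kept 12: MGARP, KRT13, DUSP10, NEFL, ERICH5, PKDCC, TUFT1, PLAT, HMOX1, ULBP2, HSPA2 and DHRS3. Without the 2 arrays that stood apart 176 genes were called, or 2.72% of those tested, 47 higher (0.726%) and 129 lower (1.99%). These held all 29. The 2 arrays were chosen after the data were seen, for their large distances from their group means. Calls gained without them are therefore no independent support. Leaving out the HB4a both-drug array 1 alone gave 65, and leaving out any other single array gave 11 to 24.

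The lines' own responses share no array with each other. HB4a had 851 genes that rose (13.1% of those tested) and 480 that fell (7.41%), and C5.2 had 355 that rose (5.48%) and 780 that fell (12% of those tested). Centring turned these into 677 up and 683 down in HB4a and 504 up and 570 down in C5.2, so the balance of rises and falls within a line rests on the scaling. Genes that rose in both lines numbered 290, which is 34.1% of the HB4a list and 81.7% of the C5.2 list. Genes that fell in both numbered 330, or 68.8% of the HB4a list and 42.3% of the C5.2 list. Over the 6474 genes the responses correlated with a Pearson r of 0.76 and a Spearman rho of 0.73, a description across genes, which are not independent. Only 3 genes rose in HB4a and fell in C5.2 at the threshold, namely HSPB8, TM4SF1 and MRPS14, and 0 did the reverse; the response difference of MRPS14, a mitochondrial ribosome protein, was -0.46 ± 0.11 and missed the threshold (adjusted p = 0.0687).

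**Figure D1:**
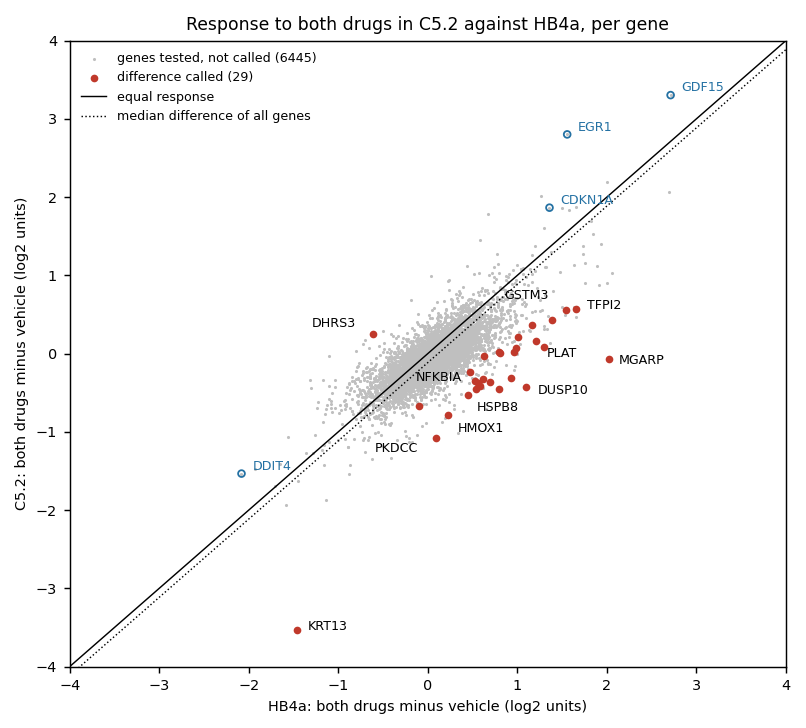
Each point is 1 of the 6474 genes tested, with the HB4a response to both drugs (log2 units) across and the C5.2 response up; the solid line marks equal responses and the dotted line the median difference of -0.11. The 29 genes with a called difference are in red, 28 of them below the line, and 4 genes that moved far in both lines (GDF15, EGR1, CDKN1A and DDIT4) are circled in blue.

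Among the 29 called genes, 24 rose in HB4a and 3 of the 29 rose in C5.2, while 6 fell in C5.2 and 2 fell in HB4a. For 23 of the 29 the vehicle mean was already higher in C5.2, beside 57.9% of all genes tested. The largest difference was that of MGARP, a mitochondrial outer membrane protein that helps move mitochondria along axons in low oxygen. MGARP was 2.91, 3.06, 2.74, 2.70 and 2.50 in HB4a with vehicle and 5.00, 5.21, 4.64, 4.92 and 4.29 with both drugs. In C5.2 it was 7.08, 6.49, 6.57, 6.63 and 6.61 with vehicle and 6.75, 5.93, 6.74, 6.86 and 6.77 with both drugs. Every treated HB4a array lay above every HB4a vehicle array, whereas the C5.2 groups overlapped and lay above all HB4a arrays. MGARP rose by 2.03 in HB4a and was -0.06 in C5.2, a difference of -2.09 ± 0.26 (adjusted p = 0.000515). Its HB4a vehicle values lay in the range of markers of other cell types on these arrays, such as PECAM1 in HB4a at 2.69 to 3.36, so the size of its rise is uncertain. Without the 2 arrays apart, 1 of which is the low C5.2 value of 5.93, it was -1.88 ± 0.23.

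KRT13, a keratin of stratified mucosal epithelium, fell in both lines and fell further in C5.2. It was 9.22, 9.36, 9.55, 9.14 and 9.67 in HB4a with vehicle and 7.69, 8.24, 8.21, 7.50 and 7.98 with both drugs. In C5.2 the values were 5.31, 5.84, 5.93, 6.24 and 6.91 with vehicle and 2.11, 2.94, 1.81, 2.35 and 3.32 with both drugs. None of the 4 groups overlapped another. The fall was 1.46 in HB4a (response -1.46) and larger in C5.2 (response -3.54), a difference of -2.07 ± 0.38 (adjusted p = 0.0146). Its treated C5.2 values, 1.81 to 3.32, lay near PECAM1 in C5.2 at 2.63 to 3.41, so the size of that fall is uncertain.

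DUSP10, a phosphatase that inactivates the stress kinases p38 and JNK, had vehicle means 0.02 apart in the lines. DUSP10 was 4.39, 4.46, 4.17, 4.42 and 4.27 in HB4a with vehicle and 5.28, 5.54, 5.74, 5.38 and 5.28 with both drugs. In C5.2 it was 4.69, 3.96, 4.52, 4.56 and 4.08 with vehicle and 4.02, 3.16, 4.24, 4.23 and 4.03 with both drugs. All treated HB4a arrays lay above the other 3 groups, which overlapped. Only the treated HB4a arrays passed log2 5, so DUSP10 entered the test through the group where it was high. The response was 1.10 in HB4a and -0.43 in C5.2, which did not pass (adjusted p = 0.124), and the difference was -1.53 ± 0.26 (adjusted p = 0.011). Its lowest array, at 3.16, was again the C5.2 both-drug array 2, and without the 2 arrays apart the difference was -1.37 ± 0.21.

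PLAT, the tissue plasminogen activator that turns plasminogen into plasmin, was 4.45, 4.59, 4.39, 4.52 and 4.20 in HB4a with vehicle and 5.42, 5.82, 5.68, 5.73 and 5.52 with both drugs. In C5.2 PLAT was 4.75, 5.02, 4.96, 4.88 and 5.08 with vehicle and 5.10, 4.92, 5.16, 5.15 and 5.2 with both drugs. The treated HB4a arrays were above all others, and the C5.2 groups overlapped; the difference was -1.04 ± 0.16 (adjusted p = 0.00452). TFPI2, a secreted Kunitz-type inhibitor of serine proteases including plasmin, was 5.29, 5.41, 4.92, 5.34 and 5.26 in HB4a with vehicle and 7.10, 6.70, 6.85, 6.85 and 7.03 with both drugs. TFPI2 in C5.2 was 8.65, 9.04, 8.15, 8.27 and 8.57 with vehicle and 9.18, 9.25, 8.80, 9.02 and 9.28 with both drugs, above every HB4a array. It rose in both lines, by 1.66 in HB4a and 0.57 in C5.2, a difference of -1.09 ± 0.20 (adjusted p = 0.0146), which missed the threshold once arrays were centred (-0.97, adjusted p = 0.0673).

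ULBP2, a stress-induced surface ligand of the natural killer cell receptor NKG2D, was 5.38, 5.58, 5.65, 5.84 and 5.58 in HB4a with vehicle and 6.74, 6.89, 7.20, 7.08 and 7.08 with both drugs. In C5.2 the ULBP2 values were 5.16, 5.44, 5.74, 5.50 and 5.64 with vehicle and 5.78, 5.84, 6.02, 5.85 and 6.12 with both drugs. It rose in both lines without overlap between vehicle and treated arrays, by 1.39 in HB4a and 0.43 in C5.2, a difference of -0.96 ± 0.17 (adjusted p = 0.0142). TM4SF1, a membrane protein of the tetraspanin-like L6 family, was 6.72, 6.87, 6.57, 6.82 and 6.43 in HB4a with vehicle and 7.70, 7.16, 7.52, 6.95 and 6.77 with both drugs. TM4SF1 in C5.2 was 8.50, 8.28, 8.56, 8.47 and 8.27 with vehicle and 8.19, 7.59, 8.11, 8.09 and 7.82 with both drugs. The HB4a groups overlapped at 1 treated array, 6.77, and the C5.2 groups did not overlap. Its response was 0.54 in HB4a and -0.45 in C5.2, a difference of -0.99 ± 0.22 (adjusted p = 0.0467), called in 3 of the 20 fits that each left out 1 array.

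A smaller set fell in C5.2 and did not pass the test in HB4a. HMOX1, the inducible heme oxygenase and a target of the oxidative stress factor NRF2, was 4.88, 4.80, 4.57, 4.53 and 4.64 in HB4a with vehicle and 4.64, 4.97, 5.03, 4.83 and 5.10 with both drugs. In C5.2 HMOX1 was 7.68, 7.81, 8.21, 7.86 and 8.04 with vehicle and 7.22, 7.24, 7.12, 6.99 and 7.09 with both drugs. The HB4a groups overlapped, the C5.2 groups did not, and even the treated C5.2 arrays lay over 1 log2 unit above HB4a. The response was 0.23 in HB4a and -0.79 in C5.2, a difference of -1.02 ± 0.16 (adjusted p = 0.00648). PKDCC, a secreted kinase that phosphorylates proteins of the extracellular space, was 3.14, 3.50, 3.22, 3.32 and 3.22 in HB4a with vehicle and 3.28, 3.24, 3.48, 3.34 and 3.50 with both drugs. PKDCC in C5.2 was 5.72, 6.22, 5.77, 6.07 and 6.29 with vehicle and 5.19, 5.03, 4.76, 4.68 and 5.03 with both drugs. The C5.2 groups did not overlap, and the difference was -1.16 ± 0.19 (adjusted p = 0.00902). All HB4a values of PKDCC lay under log2 5, at 3.14 to 3.50, near PECAM1 in HB4a at 2.69 to 3.36. A fall of PKDCC in HB4a may therefore not have been measurable. MANF, a protein of the endoplasmic reticulum secreted under folding stress, was -0.10 in HB4a and -0.67 in C5.2, a difference of -0.58 ± 0.12 (adjusted p = 0.0413), called in 3 of 20 fits that each left out 1 array.

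**Figure D2:**
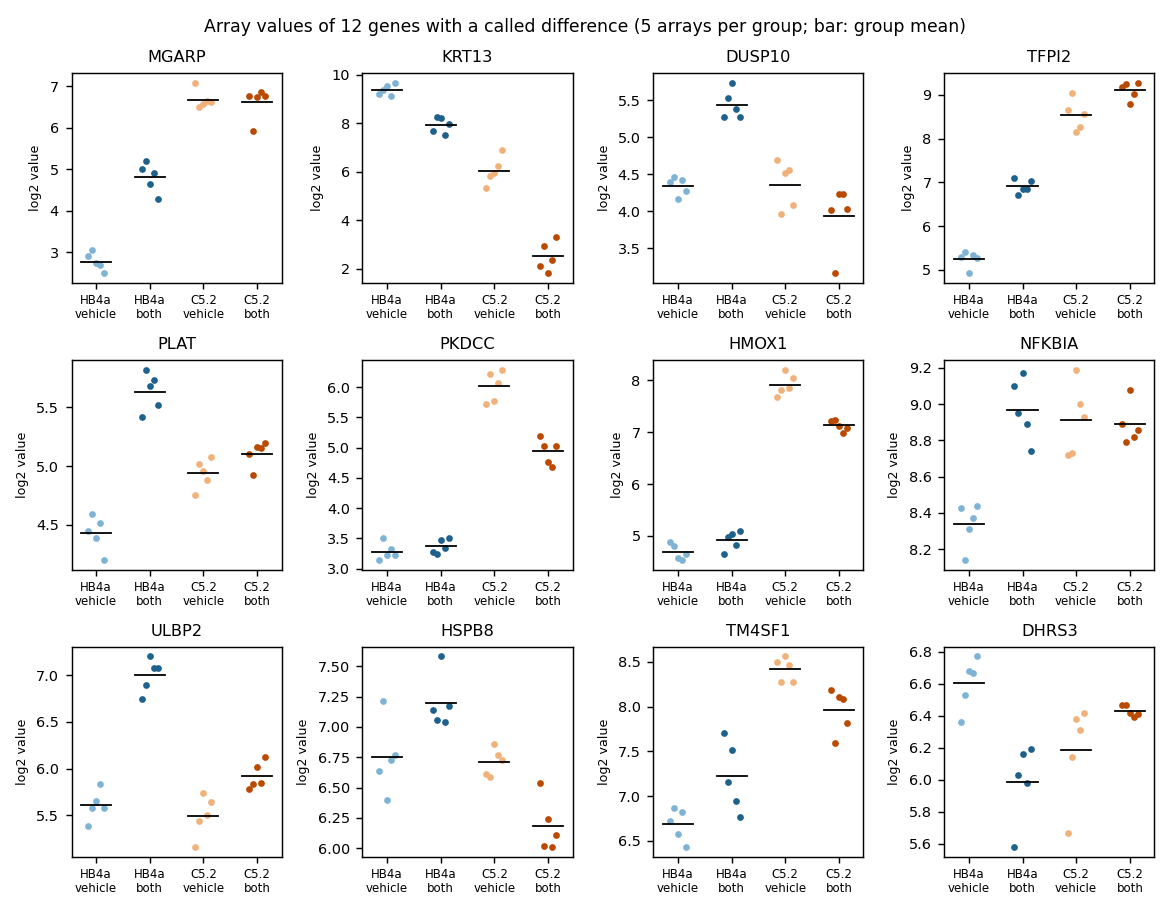
Log2 values on each array (points) and group means (bars) of 12 genes with a called difference, for HB4a and C5.2 with vehicle and with both drugs, 5 arrays per group; each panel has its own vertical axis. The treated HB4a arrays of MGARP, DUSP10, PLAT, TFPI2 and ULBP2 lie above their vehicle arrays, whereas C5.2 falls in KRT13, PKDCC and HMOX1.

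Heat shock proteins were represented by HSPB8, a small chaperone that feeds misfolded proteins to autophagy, and HSPA2, a member of the HSP70 family. HSPB8 was 6.64, 7.21, 6.40, 6.73 and 6.77 in HB4a with vehicle and 7.14, 7.06, 7.58, 7.04 and 7.17 with both drugs. HSPB8 in C5.2 was 6.61, 6.59, 6.86, 6.77 and 6.73 with vehicle and 6.54, 6.02, 6.24, 6.01 and 6.11 with both drugs. The vehicle groups overlapped between lines, the treated groups did not, and the difference was -0.97 ± 0.20 (adjusted p = 0.0299). It missed the threshold once arrays were centred (-0.86, adjusted p = 0.0743) and in 8 of the 20 fits that each left out 1 array, and was -0.43 with the mean of all HSPB8 probe sets. HSPA2 was 6.75, 6.88, 6.92, 7.12 and 7.26 in HB4a with vehicle and 7.20, 7.50, 7.71, 7.72 and 7.86 with both drugs. The C5.2 values of HSPA2 were 7.92, 7.81, 7.68, 7.81 and 7.74 with vehicle and 7.72, 7.26, 7.43, 7.33 and 7.58 with both drugs. The HB4a groups of HSPA2 overlapped slightly. It rose in HB4a by 0.61 and was -0.32 in C5.2 (adjusted p = 0.0735), a difference of -0.94 ± 0.17 (adjusted p = 0.0146).

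The only called gene in the other direction was DHRS3, a reductase that returns retinal to retinol and is induced by retinoic acid. DHRS3 was 6.36, 6.53, 6.68, 6.67 and 6.77 in HB4a with vehicle and 5.58, 6.03, 6.16, 5.98 and 6.19 with both drugs. In C5.2 it was 5.67, 6.14, 6.38, 6.31 and 6.42 with vehicle and 6.47, 6.47, 6.42, 6.39 and 6.41 with both drugs. HB4a fell without overlap of its groups, and the C5.2 groups overlapped. The response was -0.61 in HB4a and 0.25 in C5.2, a difference of 0.86 ± 0.19 (adjusted p = 0.047), called in 1 of the 20 fits that each left out 1 array. The next genes in this direction did not pass. They were led by SERPINE2, a secreted inhibitor of thrombin and urokinase, at 0.86 ± 0.20 (adjusted p = 0.0687), and NR2F1, an orphan nuclear receptor, at 1.07 ± 0.30 (adjusted p = 0.168). Both were called once arrays were centred, at 0.98 for SERPINE2 and 1.18 for NR2F1. The treated HB4a arrays of NR2F1 ran from 1.19 to 1.79, near the array medians. The other genes of lowest p in this direction, none of them called, were NR2F1-AS1 at 0.79, SESN1 at 1.11, DAPK1 at 0.70, TGM2 at 0.68, FOXC2 at 0.63, FAM216A at 0.58 and EIF4B at 0.40.

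The remaining called genes complete the set of 29. Among the 10 most negative were NEFL, the neurofilament light chain, at -1.25 ± 0.24, ERICH5 at -1.24 ± 0.27, NSG1, a neuronal endosome protein, at -1.21 ± 0.25, and TUFT1, the enamel protein tuftelin, at -1.07 ± 0.20. All HB4a values of NEFL, ERICH5, NSG1, PKDCC and ALDH2 lay under log2 5. These genes therefore passed the filter, log2 over 5 on at least 5 arrays, through C5.2. MGARP, HMOX1, GNG11 and LIN7B also needed the C5.2 arrays to pass it, since too few of their HB4a arrays lay over 5. TUFT1 was 7.19, 7.45, 7.50, 7.95 and 7.82 in HB4a with vehicle and 7.99, 8.31, 8.25, 8.49 and 8.37 with both drugs. TUFT1 in C5.2 was 7.14, 7.36, 7.68, 7.65 and 7.35 with vehicle and 6.99, 6.80, 7.18, 7.17 and 7.22 with both drugs. Its treated groups did not overlap, with all HB4a arrays higher.

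The others, with ULBP2, TM4SF1, HSPB8, HSPA2 and MANF above, were chosen after their values were seen, since they fall outside the rule for named genes. Enzymes of detoxification and metabolism among them were GSTM3, a glutathione transferase, at -0.99 ± 0.22, ALDH2, the mitochondrial aldehyde dehydrogenase, at -0.71 ± 0.14, and ASS1, argininosuccinate synthase of arginine synthesis, at -0.80 ± 0.17. FKBP1B, a member of the FKBP family to which rapamycin binds, was at -0.997 ± 0.22, rising by 0.58 in HB4a with -0.42 in C5.2 (adjusted p = 0.0673). TUBA1A, an alpha-tubulin, was at -0.94 ± 0.21, and ATP8B2, a phospholipid flippase, at -0.78 ± 0.14. The transcription factors were MSX1, a homeobox protein, at -0.93 ± 0.20, and HES6, of the basic helix-loop-helix family, at -0.80 ± 0.18. Scaffold and signalling proteins were LIN7B at -0.90 ± 0.20, INAVA, a regulator of innate immune signalling, at -0.89 ± 0.19, and GNG11, a G protein gamma subunit, at -0.81 ± 0.18. Leaving out each array in turn kept 11 of the 29 in all 20 fits, namely MGARP, KRT13, DUSP10, PKDCC, TFPI2, TUFT1, PLAT, HMOX1, ULBP2, HSPA2 and ATP8B2, and 16 of the 29 were called in under 10 of them. For 5 called genes a further probe set passed the filter, 6 probe sets in all; all 6 lay below 0, as do 71.7% of all genes, and that of ATP8B2 was -0.20. With the mean of all probe sets of a gene, dim ones included, the difference was -0.49 for ATP8B2, -0.48 for MSX1 and -0.22 for GNG11, none called.

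**Figure D3:**
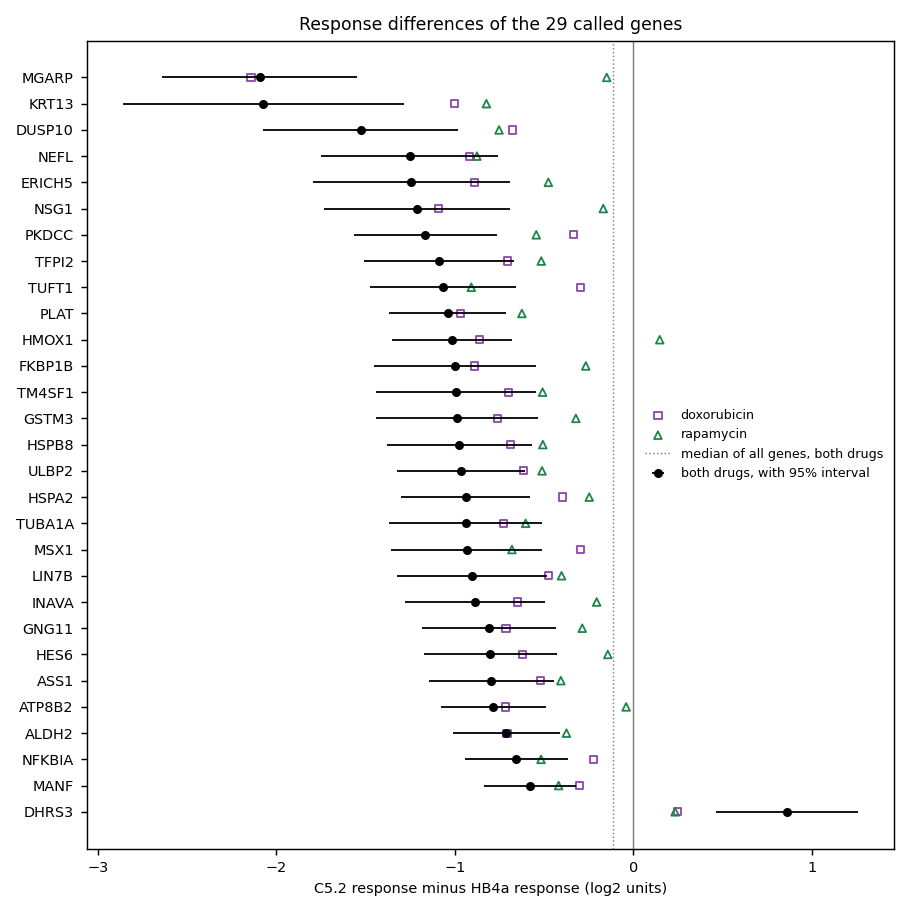
Response differences (C5.2 minus HB4a, log2 units) of the 29 called genes: black points with 95% intervals are for both drugs, squares for doxorubicin alone and triangles for rapamycin alone, and the dotted line is the all-gene median of -0.11 for both drugs. MGARP and KRT13 lie furthest to the left, and the black point of DHRS3 alone lies to the right of 0.

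The single drugs were set beside the pair in a fit of 40 arrays, 6979 genes, which share the vehicle arrays, so the values are given side by side only. The doxorubicin difference was called for 7 genes, all lower in C5.2 (0.1% of those tested), with 242 at an unadjusted p under 0.05. They were MGARP, PLAT, HMOX1, ATP8B2, and, outside the rule and named after their values were seen, AKR1B10, CIMAP3 and DENND2D. MGARP averaged 2.78 ± 0.21 (SD, n = 5) in HB4a with vehicle, 5.02 ± 0.17 with doxorubicin, 2.83 ± 0.34 with rapamycin and 4.81 ± 0.36 with both. In C5.2 its means were 6.67 ± 0.24, 6.77 ± 0.35, 6.57 ± 0.31 and 6.61 ± 0.38 in the same order. Its doxorubicin difference was -2.14 ± 0.27 (adjusted p = 7.17e-06) and its rapamycin difference -0.15. PLAT had -0.97 with doxorubicin (adjusted p = 0.00238) and -0.62 with rapamycin (adjusted p = 0.322), and HMOX1 had -0.86 with doxorubicin (adjusted p = 0.0397) and 0.15 with rapamycin. KRT13 averaged 9.39 ± 0.22 in HB4a with vehicle, 8.75 ± 0.23 with doxorubicin, 8.67 ± 0.29 with rapamycin and 7.92 ± 0.32 with both. In C5.2 it stepped from 6.04 ± 0.59 to 4.40 ± 0.80, 4.50 ± 0.58 and 2.51 ± 0.62, with differences of -1.0 for doxorubicin and -0.82 for rapamycin that did not pass.

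The rapamycin difference was called for 0 genes (0% of 6979) in limma's unpaired fit, with 358 at an unadjusted p under 0.05. With the experiment number as a block within each line, a pairing the labels do not state, 176 were called, and 141 for doxorubicin. The departure of the pair from the sum of the single drugs, compared between the lines, was called for 0 genes (0%), with 3 at an unadjusted p under 0.05. Where nothing differs, a share of 0.05 of the 6979 genes would be expected there. The 3 is far fewer, the 242 for doxorubicin fewer, and the 358 for rapamycin near it. The 0 therefore does not show that the effects of the 2 drugs added up alike in the lines. The departure was 0.20 for MGARP and -0.25 for KRT13, neither called.

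The p53 program rose in both lines. Of all genes tested 13.1% rose in HB4a and 5.48% in C5.2. Of 28 listed p53 targets 20 were tested, and 19 rose in HB4a and all 20 in C5.2, with median responses of 1.02 and 1.05; SESN1 was the exception in HB4a (0.67, adjusted p = 0.0564). The response difference was called for 0 of the 20, with 3 at an unadjusted p under 0.05 and a median of 0.14 beside -0.11 over all genes. GDF15, a secreted stress cytokine, was 7.26, 7.52, 7.09, 6.08 and 6.17 in HB4a with vehicle and 9.36, 9.85, 9.56, 9.45 and 9.46 with both drugs. GDF15 in C5.2 was 4.78, 5.30, 5.24, 5.27 and 6.16 with vehicle and 8.72, 8.61, 8.50, 8.43 and 9.01 with both drugs. It rose by 2.71 in HB4a and 3.30 in C5.2, a difference of 0.59 ± 0.35 with an interval of -0.14 to 1.32. CDKN1A, which encodes the cell cycle inhibitor p21, was 8.61, 8.67, 8.61, 7.93 and 7.67 in HB4a with vehicle and 9.42, 9.87, 9.68, 9.74 and 9.59 with both drugs. CDKN1A in C5.2 was 6.14, 6.61, 6.78, 6.47 and 6.99 with vehicle and 8.17, 8.47, 8.69, 8.33 and 8.66 with both drugs. Treated arrays lay above vehicle arrays in each line, and the difference of 0.51 ± 0.26 did not pass (adjusted p = 0.53). MDM2, the ubiquitin ligase that limits p53, rose by 1.26 in HB4a and 2.02 in C5.2, a difference of 0.76 ± 0.47. SESN1, a p53 target that restrains mTORC1, was at 1.11 ± 0.35 (adjusted p = 0.219), and without the 2 arrays apart at 1.41 ± 0.32 (adjusted p = 0.0288).

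Genes that read out mTORC1 and growth factor signalling had no called difference with all 20 arrays. DDIT4, an inhibitor of mTORC1 induced by several stresses, was 10.62, 10.64, 10.95, 10.80 and 10.75 in HB4a with vehicle and 8.09, 9.33, 8.03, 8.78 and 9.13 with both drugs. DDIT4 in C5.2 was 10.31, 10.09, 10.00, 10.15 and 10.41 with vehicle and 8.73, 8.53, 8.62, 8.51 and 8.91 with both drugs. It fell in both lines without overlap (responses -2.08 and -1.53), and the difference was 0.55 ± 0.26 (adjusted p = 0.49). IRS2, an adaptor of the insulin receptor, was at 0.50 ± 0.33 and EGFR at 0.53 ± 0.38. Without the 2 arrays apart IRS2 and EGFR were at 0.79 and 0.96, neither called. Further EGFR probe sets that passed the filter were at 0.30 and 0.12 with all 20 arrays. TOP2A, the target of doxorubicin, was at -0.38 ± 0.55. IRS2, EGFR and TOP2A did not pass. Of all genes tested 7.41% fell in HB4a and 12% in C5.2. Glycolysis genes fell in number in each line, 10 of 18 in HB4a and 13 of 18 in C5.2. So did ribosome biogenesis genes (14 and 11 of 19) and ATF4 targets (10 and 11 of 21). In these 3 lists 0 differences were called, with all 20 arrays, with 0, 0 and 6 at an unadjusted p under 0.05 and medians of -0.04, 0.01 and -0.03. EGR1, an immediate-early transcription factor, rose by 1.56 in HB4a and 2.80 in C5.2, a difference of 1.24 ± 0.40 that did not pass (adjusted p = 0.222). Without the 2 arrays apart, where 2.72% of all genes tested were called, 6 members of these and neighbouring lists passed. They were higher in C5.2 for IRS1, an insulin receptor adaptor (1.12), ERRFI1, a feedback inhibitor of EGFR (0.86), the nucleolar proteins NCL (0.79) and NOLC1 (0.71), and PSAT1 of serine synthesis (0.56). PHGDH, of the same pathway as PSAT1, was lower (-0.63).

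Among the lists, targets of NF-kB and interferon had the lowest median differences. NF-kB is held inactive by IkB-alpha, the product of NFKBIA, which NF-kB itself induces. Of 22 listed NF-kB targets 6 were tested. Of these 4 rose in HB4a and 2 in C5.2, beside 13.1% and 5.48% of all genes tested, and 1 fell in C5.2. The median difference was -0.84, and 5 of 6 lay below 0, beside 71.7% of all genes. NFKBIA was the 1 called member. NFKBIA was 8.43, 8.14, 8.31, 8.37 and 8.44 in HB4a with vehicle and 9.10, 8.95, 9.17, 8.89 and 8.74 with both drugs. In C5.2 it was 8.72, 8.73, 9.19, 9.0 and 8.93 with vehicle and 8.89, 8.79, 9.08, 8.82 and 8.86 with both drugs. The treated HB4a arrays reached the range that C5.2 held with and without drug. NFKBIA rose by 0.63 in HB4a and was -0.02 in C5.2, a difference of -0.65 ± 0.14 (adjusted p = 0.0413), which missed the threshold once arrays were centred (-0.54, adjusted p = 0.15) and was -0.17 with the mean of the NFKBIA probe sets.

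TNFAIP3, the ubiquitin-editing inhibitor A20, was 5.05, 5.09, 4.71, 5.06 and 4.32 in HB4a with vehicle and 7.17, 6.77, 7.42, 6.81 and 6.07 with both drugs. TNFAIP3 in C5.2 was 4.16, 4.14, 5.46, 5.02 and 4.75 with vehicle and 5.66, 5.04, 6.08, 5.996 and 5.30 with both drugs. It rose in both lines, by 2.00 and 0.91, and the difference of -1.10 ± 0.38 did not pass (adjusted p = 0.291). PLAU, urokinase, was at -1.03 ± 0.28 (adjusted p = 0.168), and passed without the 2 arrays apart (-1.14, adjusted p = 0.0349). PTGS2, cyclooxygenase-2, was at -1.19 ± 0.53, TNFAIP2 at -0.24 and TNFAIP8 at 0.17.

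Interferon response genes rose in number in HB4a: 6 of the 6 tested, of 23 listed, rose there, beside 13.1% of all genes. In C5.2 1 of the 6 rose, beside 5.48% of all genes. The median difference was -0.62, and 5 of 6 lay below 0, beside 71.7% of all genes. An unadjusted p under 0.05 was reached by 4, yet 0 were called. ISG15, a ubiquitin-like modifier, was 6.56, 7.24, 6.57, 6.67 and 6.76 in HB4a with vehicle and 7.66, 7.62, 8.48, 7.57 and 7.66 with both drugs. ISG15 in C5.2 was 6.89, 7.36, 7.13, 7.17 and 7.17 with vehicle and 7.15, 7.36, 7.17, 7.24 and 7.43 with both drugs. The treated HB4a arrays lay above all other groups, and the difference was -0.91 ± 0.22 (adjusted p = 0.0808). MX1 was at -0.79, OAS3 at -0.78, IRF9 at -0.46, IFI6 at -0.33 and IFITM1 at 0.01. Without the 2 arrays apart, chosen after the data were seen, ISG15 (-0.97, adjusted p = 0.0351) and MX1 (-0.95, adjusted p = 0.0393) passed, where 2.72% of all genes did. With arrays centred the list's median was -0.51 and that of NF-kB targets -0.73.

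The DNA just upstream of the start of 3 called genes is shown because it matches loose patterns drawn from sites of known factors. The patterns are for the kappaB site of NF-kB (NFKBIA), the heat shock element (HSPB8) and the AP-1 site (TFPI2). JNK-driven JUN proteins bind the AP-1 site. No list of heat shock or AP-1 targets was tested. Each run covers the 250 bases before the start in RefSeq (GRCh38.p14), 5′ to 3′ on the gene's strand, with matches to the motifs in capitals, at chr14:35404750-35404999 (minus strand), chr12:119178681-119178930 (plus strand) and chr7:93890754-93891003 (minus strand).
NFKBIA: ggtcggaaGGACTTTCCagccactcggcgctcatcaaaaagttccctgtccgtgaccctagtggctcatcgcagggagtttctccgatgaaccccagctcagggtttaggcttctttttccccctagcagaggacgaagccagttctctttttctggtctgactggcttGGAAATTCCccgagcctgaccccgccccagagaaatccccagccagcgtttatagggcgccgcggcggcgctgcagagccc
HSPB8: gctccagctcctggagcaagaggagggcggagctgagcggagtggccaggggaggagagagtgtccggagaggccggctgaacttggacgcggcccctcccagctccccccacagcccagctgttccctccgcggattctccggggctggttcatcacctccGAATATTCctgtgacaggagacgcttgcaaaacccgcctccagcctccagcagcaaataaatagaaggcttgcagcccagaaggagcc
TFPI2: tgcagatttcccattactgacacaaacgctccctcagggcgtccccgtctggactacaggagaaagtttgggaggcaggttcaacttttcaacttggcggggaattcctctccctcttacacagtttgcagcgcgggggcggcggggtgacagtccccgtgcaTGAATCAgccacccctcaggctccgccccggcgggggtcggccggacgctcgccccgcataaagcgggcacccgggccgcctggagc
The motifs were searched on both strands as GGANTTTCC for kappaB, GAANNTTC for the heat shock element and TGANTCA for AP-1. They were chosen after the values of these genes were seen. In these patterns N is any base, so GAATATTC in HSPB8 and TGAATCA in TFPI2 need not be full sites. Over all 27305 promoters of the same length, 1.47% hold the kappaB letters, 5.85% the heat shock letters and 6.60% the AP-1 letters. Of the 29 called genes 22 had a promoter in the table, and each motif was found in 1 of the 22. NFKBIA held 2 matches, starting 242 and 81 bases before the start, HSPB8 1 match at 88 bases and TFPI2 1 match at 87 bases. A match describes letters and is not evidence of binding.

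Oxidative phosphorylation genes, which build the respiratory chain and ATP synthase, lay below 0 in 23 of 23 tested, with a median of -0.19; 0 were called and 9 had an unadjusted p under 0.05. In HB4a 2 rose and 2 fell, and in C5.2 0 rose and 8 fell, beside 12% of all genes that fell in C5.2. With arrays centred 1 rose and 1 fell in HB4a, and in C5.2 0 rose and 3 fell. Of all genes tested 71.7% lay below 0. Read against the all-gene median of -0.11, 20 of the 23 lay below it, and with arrays centred the list's median was -0.07. Luminal keratins and other luminal markers had a median of -0.29, with 12 of 13 below 0, beside 71.7% of all genes. Of the 13, 0 were called and 2 had an unadjusted p under 0.05. KRT19 fell in both lines, by response values of -1.14 in HB4a and -1.87 in C5.2, and its difference of -0.74 ± 0.30 did not pass (adjusted p = 0.409). Lysosome and autophagy genes rose for 11 of 18 in HB4a and 2 of 18 in C5.2, beside 13.1% and 5.48% of all genes. Their median difference was -0.14. Centring brought those counts of 18 to 7 and 6 and the median to -0.02.

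Of the NRF2-type reductase list only HMOX1 was called among 10 tested; AKR1C1 (-0.80 ± 0.25) and AKR1C2 (-0.73 ± 0.23), close paralogs whose probes can share signal, fell in C5.2 and their differences did not pass. DNA replication genes fell for 8 of 27 in HB4a and 13 of 27 in C5.2, beside 7.41% and 12% of all genes. Their median difference was -0.21. G2 and mitosis genes rose for 7 and 6 of 20, beside 13.1% and 5.48% of all genes, with a median difference of 0.02. Without the 2 arrays apart 7 and 13 of them rose, beside 1270 and 725 of all 6474 genes. Hypoxia targets had the highest median, 0.16, with 13 tested and 2 at an unadjusted p under 0.05. Of the 13, 2 lay below 0, beside 71.7% of all genes, and 1 below the all-gene median. Their median was 0.28 with arrays centred and 0.44 without the 2 arrays apart. In the 22 lists with tested members other than NF-kB targets and the reductases, 0 members had a called difference with all 20 arrays. Without the 2 arrays apart, where 2.72% of all genes tested were called, GCLC (0.81), CTSB (-0.42), GLA (-0.54) and NDUFA2 (-0.39) also passed. They belong to the reductase, lysosome and respiratory chain lists. Markers of leukocytes and endothelium had a value for 12 genes, 0 of which passed the filter.

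**Figure D4:**
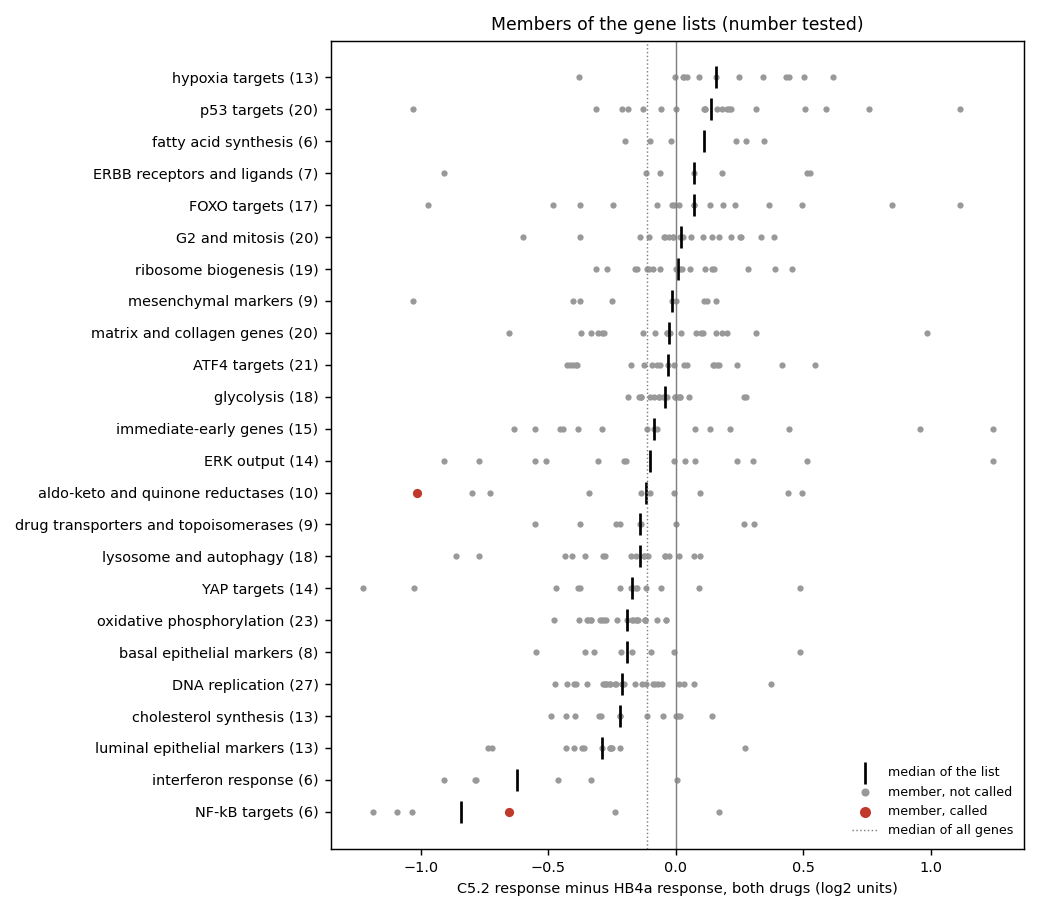
Response differences (C5.2 minus HB4a, both drugs, log2 units) of the tested members of each gene list, with the number tested in parentheses; points are genes, bars the list medians, red points the called members, and the dotted line the all-gene median of -0.11. NF-kB targets (median -0.84) and interferon response genes (median -0.62) lie furthest left, and the 2 red points are NFKBIA and HMOX1.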

How the data were processed

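RNA of each culture was hybridised to 1 Affymetrix array. The authors deposited log2 probe set values summarised with RMA, per the submitters' processing notes; the version, background step, and whether 1 run covered all arrays are not given in the sources used here, and base 2 was inferred from the range, -0.60 to 13.08. Deposited symbols named 41091 of 54675 probe sets by 1 gene; 1801 with several and 11777 unnamed were not used. Each of 19775 genes was represented by its probe set of highest mean over the 20 arrays and tested where log2 passed 5 on at least 5 arrays. limma 3.58.1 (R 4.3.3) fitted 4 group means, unpaired, with trended empirical Bayes and Benjamini-Hochberg adjustment over all genes tested, called under 0.05; it was tested on simulated data. A fit of 40 arrays gave the single drugs.

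Genes were named by rule: the 10 largest called differences in each direction with separate responses, filled up by lowest p, up to 2 called members per list and direction, and 8 preset genes. The rule named 13 of the 29 called genes; the other 16 were named after their values were seen. Members and gene lists were chosen with earlier results of these data known. The number of arrays limits precision, and no scan dates or batches are given, so line and batch cannot be told apart. Experiment numbers were not used as pairs, since residuals of same-numbered arrays correlated between -0.53 and 0.89. Figures were drawn with matplotlib 3.10.9.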

Additional observations from a re-analysis of the deposited data

Results flagged for a closer look

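Of 184 groups of 5 arrays checked over 46 named genes, 10 held an array far from the other 4; chance alone flags about 1 group in 20. The C5.2 both-drug array 2 was the lowest for MGARP (5.93, the others 6.74 to 6.86), DUSP10 (3.16, the others 4.02 to 4.24) and ERICH5 (4.46, the others 5.25 to 5.42). The C5.2 vehicle array 1 was the highest for MGARP (7.08) and FAM216A (6.95), and the lowest for ERBB2 (11.63, the others 12.13 to 12.23). The C5.2 vehicle array 2 was the highest for ALDH2 (7.03), and the C5.2 both-drug array 1 the highest for MANF (7.67). In HB4a, vehicle array 3 was the highest for NSG1 (2.27) and the both-drug array 3 the highest for HSPB8 (7.58).

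The response to both drugs differed between the lines, by the interaction test itself, for 29 genes. The differences on the log2 scale were -2.09 for MGARP, -2.07 for KRT13, -1.53 for DUSP10, -1.25 for NEFL, -1.24 for ERICH5, -1.21 for NSG1, -1.16 for PKDCC, -1.09 for TFPI2, -1.07 for TUFT1, -1.04 for PLAT, -1.02 for HMOX1 and -1.0 for FKBP1B. They were -0.99 for TM4SF1 and GSTM3, -0.97 for HSPB8, -0.96 for ULBP2, -0.94 for HSPA2 and TUBA1A, -0.93 for MSX1, -0.90 for LIN7B, -0.89 for INAVA, -0.81 for GNG11 and -0.80 for HES6 and ASS1. The smallest were -0.78 for ATP8B2, -0.71 for ALDH2, -0.65 for NFKBIA and -0.58 for MANF, with 0.86 for DHRS3.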

How the results depend on the processing

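The count of 29 called differences moved with the filter (14 at log2 7, 6 with a mean over 5 in every group), with centring (14) and quantile normalization (14), with limma's array weights (909) and with 60 arrays in the fit (52). The filter on a mean over 5 in every group left out MGARP, KRT13, DUSP10, PLAT and HMOX1, among others, as some group mean lay under 5. Leaving out the 2 arrays apart, an alternative added after the data were seen, gave 176, and leaving out single arrays gave 11 to 65. The HB4a response count of 1331 moved to 577 at log2 7, 881 with a mean over 5 in every group, 858 with the mean of all probe sets and 2100 with array weights (leave-one-out 1056 to 1659). The C5.2 count of 1135 moved to 626 at log2 7 and 2907 with array weights (leave-one-out 808 to 1318). The median difference was 0.0026 with centring, -0.026 with quantile normalization, -0.035 without a filter and -0.07 without the C5.2 both-drug array 2. Without a filter the doxorubicin difference was called for 16 genes and the rapamycin difference for 2. TOP2A reversed, to 0.0479 with array weights and 0.0162 without the 2 arrays apart, and was called in neither. Of the results for single named genes, 356 lost a call under an alternative, 37 gained one and 1154 kept their side; the cause was not tested. With the experiment number as a replicate block within each line the counts were 119 for the difference, 1724 for the C5.2 response, 141 for doxorubicin and 176 for rapamycin, and with a block shared by both lines the difference had 63. The labels do not say that numbers pair arrays, and 3 of 5 vehicle arrays in each line correlated best with the both-drug array of their own number. The departure from additivity was called for 0 genes in each fit run.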
